A study of Mus musculus with 4 samples.

Results

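The 8 genes described here are *Sftpa1*, *Sftpb*, *Sftpc*, *Sftpd*, *Abca3*, *Lamp3*, *Napsa* and *Slc34a2*, which make, process or package pulmonary surfactant. They were taken as a list, as 8 of the 32286 genes in the deposited tables, and their mRNA was measured by single-cell RNA-seq in lung cells of 4 mice. The groups were 2 wild-type (WT) mice and 2 *Tubb3*-/- mice, which carry 2 copies of a *Tubb3* allele with *Cre* inserted at its translation start. All 4 mice had received 0.8 U/kg bleomycin through the trachea 14 days before, and per the study's methods WT mice were littermates and mice were 8 to 11 weeks old. No mouse without bleomycin was measured, so the levels below are levels in injured lung. Each mouse gave a whole-cell library depleted of red blood cells and a library enriched for mural cells, from which EpCAM, CD45 and CD31 positive cells had been depleted. Values of the 4 mice are given in the order WT replicate 1, WT replicate 2, *Tubb3*-/- replicate 1, *Tubb3*-/- replicate 2.

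Surfactant is a film of phospholipid and protein that lowers surface tension in the alveolus. Alveolar type 2 (AT2) cells make it, store it in lamellar bodies, which are lysosome-related organelles, and release it into the airspace. *Sftpb* and *Sftpc* encode the hydrophobic proteins SP-B and SP-C that spread the lipid film, while *Sftpa1* and *Sftpd* encode the collectins SP-A and SP-D, which bind microbes and take part in surfactant turnover. *Abca3* encodes the transporter that loads phospholipid into lamellar bodies, *Lamp3* a membrane glycoprotein of lysosomes and lamellar bodies, *Napsa* an aspartic protease that trims the SP-B precursor, and *Slc34a2* a sodium-phosphate cotransporter of the apical AT2 membrane. After injury AT2 cells pass through a transitional state marked by *Cldn4* and keratins on the way to alveolar type 1 (AT1) cells, which express *Ager* and *Rtkn2*.

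Epithelial cells were those with an *Epcam* unique molecular identifier (UMI, a count of 1 captured mRNA molecule), of which there were 2405 among 30083 cells kept. As the states were first drawn, *Sftpc*-high cells were to have at least 50 *Sftpc* UMIs and no UMI of *Cldn4*, *Ager*, *Rtkn2* or *Foxj1*. This state was nearly empty, because 344 of the 348 *Epcam*-positive cells with at least 50 *Sftpc* UMIs (98.9%) held an *Ager* UMI. The states were therefore drawn again after the data had been seen, by amounts in place of presence, and both libraries of a mouse were summed. *Sftpc*-high *Cldn4*-negative cells (at least 50 *Sftpc* UMIs) numbered 68, 105, 49 and 60 in the 4 mice, and *Sftpc*-high *Cldn4*-positive cells 14, 8, 13 and 22. *Cldn4*-positive *Sftpc*-low cells numbered 43, 21, 63 and 56. *Ager*-high cells (at least 10 UMIs of *Ager* plus *Rtkn2*, no *Cldn4*, under 50 *Sftpc* UMIs) numbered 28, 45, 48 and 35. The 348 cells with at least 50 *Sftpc* UMIs had a median of 28 UMIs of *Ager* plus *Rtkn2*. The *Sftpc* floor, and not the *Ager* limit, therefore parts *Ager*-high from *Sftpc*-high cells. The states drawn by airway genes were 159 *Foxj1*-positive cells (*Foxj1* is a gene of ciliated cells) and 64 *Scgb1a1*-high cells (at least 500 UMIs of *Scgb1a1*, a club cell gene). The *Sftpc* floor drew all 6 states, so *Sftpc* is given without a test in them and the other 7 genes are counted. The 6 states hold 901 cells, and 16 more met more than 1 of the *Sftpc*, *Foxj1* and *Scgb1a1* limits. The other 1488 *Epcam*-positive cells had a median of 1 *Epcam* UMI, against 3 in *Sftpc*-high *Cldn4*-negative cells, and a *Ptprc* UMI in 80.8%. Few cells lay near the *Sftpc* floor, with 21 cells between 20 and 49 *Sftpc* UMIs, 12 between 50 and 99, and 314 at 200 or above.

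The names of the states were checked against marker lists, as the summed level of the list in CPM (UMIs per 1000000 gene UMIs of the summed cells). The 5 AT2 markers that are not among the 8 genes, *Lyz2*, *Lpcat1*, *Etv5*, *Hc* and *Cxcl15*, together held 17392 to 27764 CPM in *Sftpc*-high *Cldn4*-negative cells and 350 to 2029 CPM in *Cldn4*-positive *Sftpc*-low cells. The 7 transitional markers held 6327 to 8072 CPM in *Cldn4*-positive *Sftpc*-low cells against 1686 to 2027 CPM in *Sftpc*-high *Cldn4*-negative cells. The 8 AT1 markers were highest in *Ager*-high cells, at 8387 to 15504 CPM. *Ager*-high cells also held transitional markers at 4833 to 5554 CPM, so that state is not AT1 alone. Among the immune markers, *Cldn4*-positive *Sftpc*-low cells had 143 to 505 CPM and *Sftpc*-high *Cldn4*-negative cells 36.8 to 152 CPM, and fibroblast markers were at 695, 468, 2526 and 2008 CPM in the first state, 301 to 879 CPM in the second and 298 to 690 CPM in *Ager*-high cells. The part of other cells' RNA in the levels of *Cldn4*-positive *Sftpc*-low cells was not tested. Whole-cell libraries held 41462258 to 68738958 gene UMIs each, and *Tubb3* was lower in the *Tubb3*-/- than in the WT mice, without overlap, in either kind of library. The 2 pools shared 59 cell barcodes and libraries of 1 pool shared 0.

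The sequence around a RefSeq transcription start of 4 of the genes is shown first, since these genes were among the furthest down in *Cldn4*-positive cells, and these windows hold the letters of motifs of AT2 transcription factors. Each line gives 250 bases before the transcription start and the first 50 bases after it, 5′ to 3′ on the gene's strand, from RefSeq on GRCm38.p6, where 5 of the 8 genes had an entry. Capitals mark matches, on either strand, to CTCAAG (the core of NKX2-1 sites), TGTTTNC (a forkhead core) or TTGCGCAA (a C/EBP palindrome). The windows lie at chr6:72304360-72304659 (*Sftpb*, plus strand), chr14:41131538-41131837 (*Sftpa1*, plus strand), chr16:19706316-19706615 (*Lamp3*, minus strand) and chr5:53049103-53049402 (*Slc34a2*, plus strand).
Sftpb: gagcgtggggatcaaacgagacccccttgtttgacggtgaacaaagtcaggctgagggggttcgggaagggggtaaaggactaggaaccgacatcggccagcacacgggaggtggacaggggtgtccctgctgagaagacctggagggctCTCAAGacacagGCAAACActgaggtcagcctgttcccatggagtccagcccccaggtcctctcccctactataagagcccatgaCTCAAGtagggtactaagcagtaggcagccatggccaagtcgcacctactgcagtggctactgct
Sftpa1: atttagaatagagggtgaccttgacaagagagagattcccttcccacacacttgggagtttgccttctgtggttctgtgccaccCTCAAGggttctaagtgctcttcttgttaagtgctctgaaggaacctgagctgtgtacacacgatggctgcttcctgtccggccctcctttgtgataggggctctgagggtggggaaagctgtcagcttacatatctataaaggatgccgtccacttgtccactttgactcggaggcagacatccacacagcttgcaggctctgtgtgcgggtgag
Lamp3: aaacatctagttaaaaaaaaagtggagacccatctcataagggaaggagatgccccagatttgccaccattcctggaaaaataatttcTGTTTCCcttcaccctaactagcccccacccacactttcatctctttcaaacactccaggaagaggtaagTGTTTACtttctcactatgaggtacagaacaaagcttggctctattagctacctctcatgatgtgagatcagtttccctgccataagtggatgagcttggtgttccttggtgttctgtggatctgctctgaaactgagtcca
Slc34a2: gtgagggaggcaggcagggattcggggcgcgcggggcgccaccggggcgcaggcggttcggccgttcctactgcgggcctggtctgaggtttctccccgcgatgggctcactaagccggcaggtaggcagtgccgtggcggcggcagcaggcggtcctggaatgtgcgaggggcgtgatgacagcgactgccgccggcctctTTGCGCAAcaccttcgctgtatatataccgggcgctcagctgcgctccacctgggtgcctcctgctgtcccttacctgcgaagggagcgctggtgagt
The *Sftpb* window holds CTCAAG 100 and 15 bases before the start, with the forkhead letters on the reverse strand at 88 bases before it. In the *Sftpa1* window CTCAAG lies 166 bases before the start, and the *Lamp3* window holds TGTTTCC at 162 and TGTTTAC at 92 bases before it. *Slc34a2* carries the C/EBP palindrome 48 bases before its RefSeq start. That start lies inside the gene as placed below (chr5:53038081-53071664) and not at its outer end. Of 32851 RefSeq windows of this length, 15.9% hold CTCAAG, 20.5% hold TGTTTNC and 0.183% hold TTGCGCAA, so the first 2 are common, and a match is letters in a window and not a measured site. The *Abca3* window (chr17:24351773-24352072) holds none of these letters, which says nothing about the factors. On GRCm38, *Sftpa1* (chr14:41131782-41136452, plus strand) and *Sftpd* (chr14:41172214-41185149, minus strand) are neighbours, 35761 bases apart with the collectin gene *Mbl1* between them. *Sftpc* lies elsewhere on that chromosome (chr14:70520949-70524081, minus strand), *Sftpb* at chr6:72304610-72314371 and *Lamp3* at chr16:19653378-19706375. *Abca3* (chr17:24351950-24410201), *Napsa* (chr7:44572380-44586862) and *Slc34a2* (chr5:53038081-53071664) each overlap an annotated gene on the other strand, and since the use of strand in counting is not given in the sources used here, reads of the partners cannot be told apart from theirs.

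Most mRNA of 6 of the genes lay in the few *Sftpc*-high cells, while *Napsa* and *Abca3* were spread over other cells. In the whole-cell libraries, *Sftpc*-high cells with or without *Cldn4* held 86.7% of all *Sftpc* UMIs (mean of the 4 mice, range 80.4 to 90.2). For *Slc34a2* the share was 81.3% (78.1 to 85.4) and for *Lamp3* 81.1% (71.4 to 87.8). The collectin *Sftpa1* had 76.8% there (69.5 to 81.8), *Sftpb* 72.9% (62.4 to 81.1) and *Sftpd* 70.0% (64.8 to 77.6). *Napsa* had only 31.2% (17.5 to 49.3) of its UMIs in these cells, and *Ptprc* cells, which are leukocytes, held 36.6% (27.3 to 45.3). *Abca3* had 25.1% (15.3 to 36.3) in *Sftpc*-high cells, 22.9% in *Ptprc* cells and 11% in *Cdh5* cells, which are endothelial. *Scgb1a1*-high airway cells held 9.73% of *Sftpb*, 7.70% of *Sftpd* and 6.96% of *Sftpa1* UMIs, but 0.0718% of those of *Sftpc*.

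**Figure D1:**
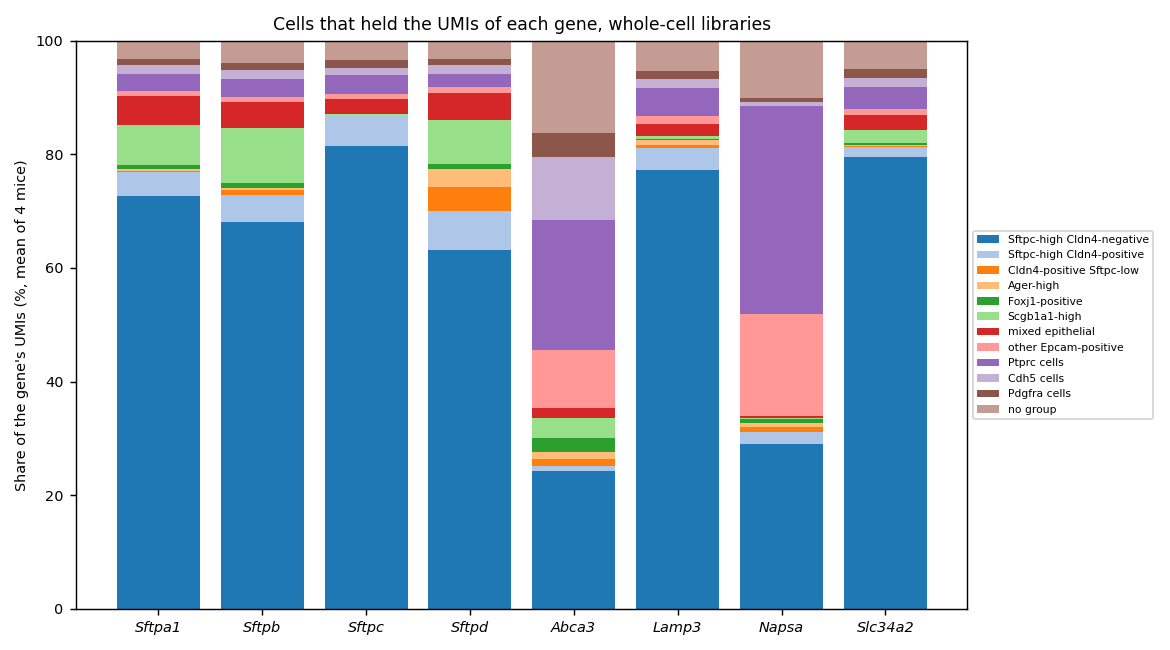
Percent of each gene's UMIs found in each cell group in the whole-cell libraries, as the mean of 4 mice, with 1 stacked bar per gene. *Sftpc*-high cells hold 86.7% of *Sftpc* UMIs but 31.2% of those of *Napsa* and 25.1% of those of *Abca3*, for which *Ptprc* cells hold 36.6% and 22.9%.

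In *Sftpc*-high *Cldn4*-negative cells the genes had similar levels in the 4 mice. *Sftpc* itself, which chose these cells and is described without a test, had 148936, 160097, 123220 and 136440 CPM. *Sftpb* had 6396, 6602, 6328 and 5545 CPM. Of the collectins, *Sftpa1* had 18727, 21431, 16420 and 17886 CPM. *Sftpd* had 4540, 4646, 5432 and 5334 CPM. Among the genes of the lamellar body and its lipid and phosphate supply, *Slc34a2* had 3247, 3321, 2724 and 3322 CPM. *Napsa* had 2374, 2201, 2410 and 2171 CPM, *Lamp3* 1224, 1199, 999 and 936 CPM, and *Abca3* 485, 480, 475 and 496 CPM. Levels of different genes are not compared here, since UMI counts of 3′ libraries depend on the gene.

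Single cells of this state spread widely. At least 90% of its cells in a mouse had a UMI of any 1 of the genes. In raw UMIs per cell, which hold the depth of the cell too, the 10th percentile of *Sftpa1* among cells was 7.5, 56.4, 1.8 and 0.9 UMIs, and the 90th percentile was 134, 16.5, 532 and 1210 times as high. The last 2 ratios rest on percentiles near 1 UMI. *Abca3* had the narrowest range in 3 of the 4 mice, with ratios of 15.6, 7.0, 5.58 and 13.6. Within a mouse, *Sftpa1* and *Sftpd* rose and fell together across cells, with a Spearman rho of 0.726 to 0.807, and *Sftpa1* and *Sftpc* had a rho of 0.590 to 0.757. *Lamp3* went with *Sftpb* (0.562 to 0.782) and *Slc34a2* with *Abca3* (0.531 to 0.796). *Abca3* hardly followed *Sftpa1* (−0.0434 to 0.473) or *Sftpd* (−0.0181 to 0.432). The cells of a mouse share its libraries, and these values over 49 to 105 cells a mouse are a description.

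**Figure D2:**
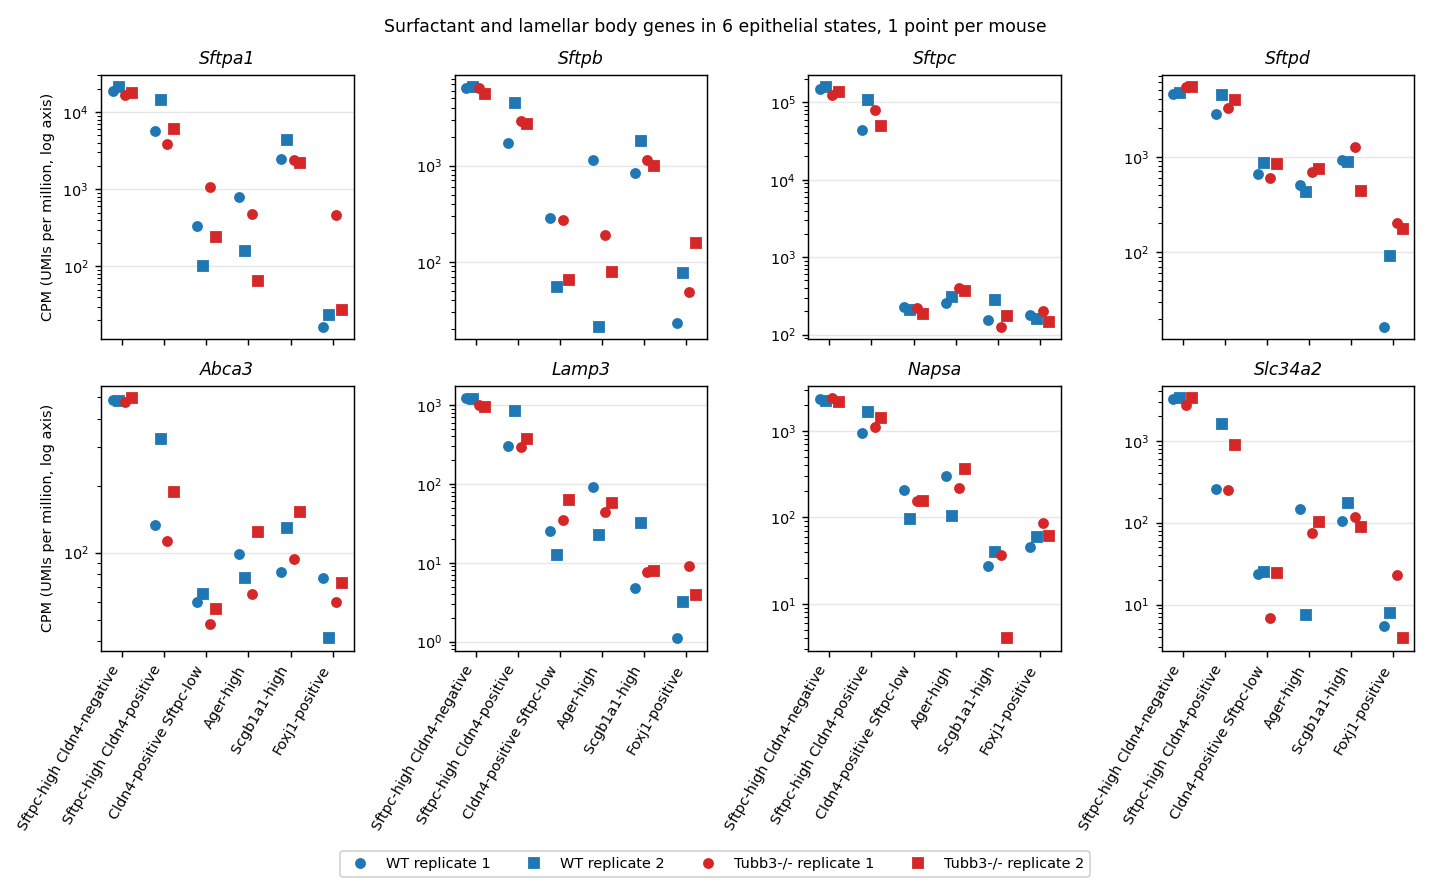
Level of each gene in CPM on a log axis in 6 epithelial states, with 1 point per mouse and 1 panel per gene, over both libraries of a mouse. All 8 genes are highest in *Sftpc*-high *Cldn4*-negative cells, and *Sftpa1*, *Sftpb* and *Sftpd* stay above 400 CPM in every mouse in *Scgb1a1*-high cells while *Sftpc* there is at 125 to 281 CPM.

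In cells with *Cldn4* and little *Sftpc*, all 7 other genes were lower than in *Sftpc*-high *Cldn4*-negative cells, but by very different amounts. *Sftpc* chose both states, and the other genes go with it within cells, so the direction of these differences was fixed in part by the choice of cells. The difference was largest for *Slc34a2*, which had 23.8, 25.1, 6.92 and 24.2 CPM in *Cldn4*-positive *Sftpc*-low cells. It was 216-fold lower (log2 fold change −7.76, SE 0.70, 4 mice as blocks, edgeR adjusted p = 3.06e-08). *Sftpa1* had 332, 101, 1084 and 241 CPM (log2 −6.17, SE 0.90) and *Sftpb* 285, 55.3, 271 and 65.1 CPM (log2 −5.65, SE 0.86). The 4 mice differed widely for these 2 genes, yet all lay far under their values in *Sftpc*-high cells. Of the 183 *Cldn4*-positive *Sftpc*-low cells 116 came from the mural cell-enriched libraries, and the 2 kinds of library differed as well. *Sftpa1* had 263, 131, 80.8 and 70.8 CPM in the whole-cell and 405, 65.3, 1652 and 302 CPM in the mural cell-enriched libraries. *Lamp3* had 25.1, 12.6, 35.3 and 62.0 CPM (log2 −5.25, SE 0.46), and the protease gene *Napsa* 206, 95.5, 154 and 154 CPM (log2 −4.29, SE 0.36). *Abca3* was 11.2-fold lower, at 60.2, 65.4, 47.6 and 56.0 CPM (log2 −3.49, SE 0.26). *Sftpd* differed least of the 7, at 663, 867, 592 and 831 CPM, and was 8.85-fold lower (log2 −3.15, 95% interval −3.93 to −2.36). That interval does not overlap the interval of *Slc34a2* (−9.20 to −6.31), although the difference between genes was not tested itself. The adjusted p of the 7 genes ranged from 3.18e-09 to 3.25e-05. Of all 10824 genes tested 12.1% were called lower, and the median log2 fold change was −5.25 for the 7 genes and 0.09 for all genes.

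*Ager*-high cells, on the AT1 side, had lower levels of all 7 genes than *Sftpc*-high *Cldn4*-negative cells, against 11.4% of all genes, with a median log2 fold change of −4.74 against 0.05. The *Sftpc* floor parted these states too, so the direction was again fixed in part by the choice of cells. *Sftpa1* had 804, 156, 483 and 64.8 CPM (log2 −6.26, SE 0.91) and *Slc34a2* 145.5, 7.45, 75.1 and 102 CPM (log2 −5.60, SE 0.62). Of the 156 *Ager*-high cells 98 came from the mural cell-enriched libraries, where *Slc34a2* had 256, 9.13, 114 and 166 CPM. In the whole-cell libraries *Slc34a2* had 0, 3.88, 33.7 and 11.2 CPM (0, 1, 13 and 3 UMIs). *Abca3* fell least, to 98.5, 77, 65.1 and 123 CPM (log2 −2.80, SE 0.25, edgeR adjusted p = 3.48e-08), and *Sftpd* was at 510.4, 427, 699.7 and 749 CPM (log2 −3.44, SE 0.38). Between the 2 *Sftpc*-low alveolar states, 1 of the 7 genes passed, *Slc34a2*, which was lower in *Cldn4*-positive *Sftpc*-low than in *Ager*-high cells (log2 −2.16, SE 0.66, edgeR adjusted p = 0.0279). This compares with 8.44% of all genes called lower. The call was lost without WT replicate 1, *Tubb3*-/- replicate 1 or *Tubb3*-/- replicate 2, as the count was 0 without any of these, and without WT replicate 2 it was 2. In these cells *Sftpd* did not differ beyond its error (log2 0.29, 95% interval −0.44 to 1.03). When cells were sorted by the presence of a marker alone, *Cldn4*-positive cells of the whole-cell libraries were lower than *Ager* or *Rtkn2*-positive cells for 6 of the 8 genes (10.3% of all genes lower). Those 2 states were mixed, since 14.0% of the *Cldn4*-positive and 35.1% of the *Ager* or *Rtkn2*-positive cells had at least 50 *Sftpc* UMIs.

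**Figure D3:**
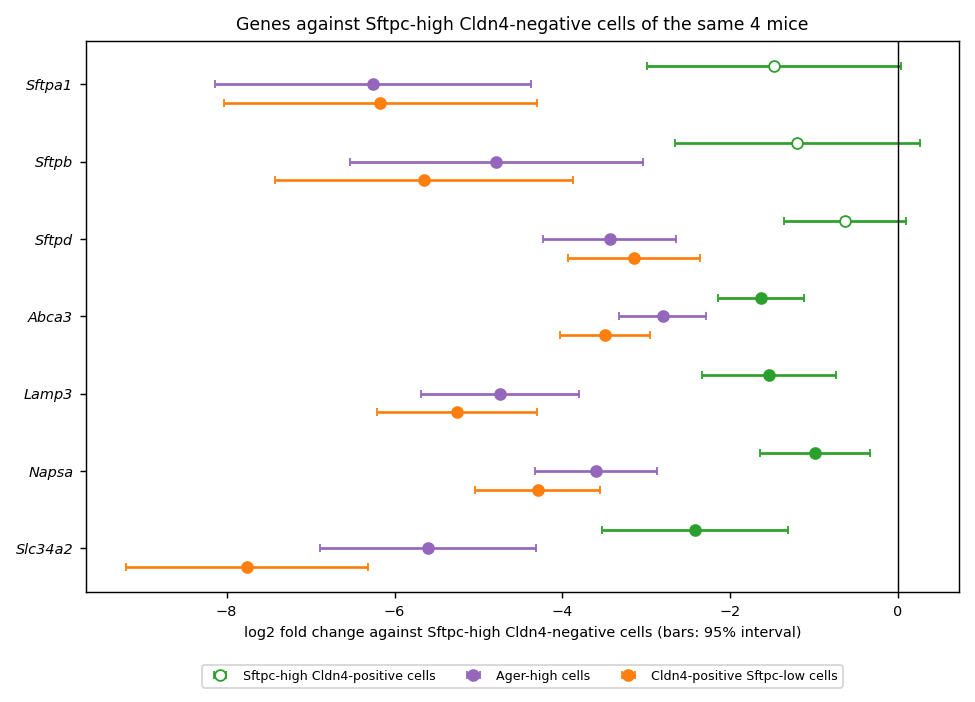
Log2 fold change of 7 genes against *Sftpc*-high *Cldn4*-negative cells, with 95% intervals from the fit over 4 mice, for *Sftpc*-high *Cldn4*-positive, *Ager*-high and *Cldn4*-positive *Sftpc*-low cells, with open symbols where the adjusted p is 0.05 or above. Values in *Cldn4*-positive *Sftpc*-low cells run from −3.15 for *Sftpd* to −7.76 for *Slc34a2*, and those in *Sftpc*-high *Cldn4*-positive cells from −0.63 to −2.43.

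Cells that held at least 50 *Sftpc* UMIs and also *Cldn4* lay between these states in level. In these 57 cells, 4 of the 7 genes were lower than in *Sftpc*-high *Cldn4*-negative cells, against 5.01% of all genes called lower, and the median log2 fold change was −1.48 against −0.03. *Slc34a2* was 5.37-fold lower, at 256, 1587, 248 and 900.2 CPM (log2 −2.43, SE 0.54, edgeR adjusted p = 0.00729). *Abca3* was at 134, 324, 113 and 186 CPM (log2 −1.63, SE 0.25, edgeR adjusted p = 0.000593). All 8 genes, not only these, were lower in each of the 4 mice than in any mouse's *Sftpc*-high *Cldn4*-negative cells. *Lamp3* was at 299, 838, 290 and 366 CPM (log2 −1.54, SE 0.39, edgeR adjusted p = 0.0154) and *Napsa* at 951, 1675, 1124 and 1404 CPM (log2 −0.99, SE 0.32, edgeR adjusted p = 0.0494). For the secreted proteins the levels were lower too, but the intervals included 0. *Sftpa1* had 5711, 14313, 3811 and 5959 CPM (log2 −1.48, 95% interval −2.99 to 0.03), *Sftpb* 1698, 4485, 2870 and 2668 CPM (−2.66 to 0.26) and *Sftpd* 2835, 4411, 3259 and 3954 CPM (−1.35 to 0.09). *Sftpc*, given without a test, had 44314, 106182, 79606 and 49032 CPM. WT replicate 2, with only 8 such cells, was the highest for all 8 genes. The count of 4 became 1 without WT replicate 1 and 2 without either *Tubb3*-/- replicate, and it was 1 when cells with a *Ptprc*, *Cdh5* or *Pdgfra* UMI were left out. It was 7 when *Cldn4* had to reach 3 UMIs. Of the 57 cells 42 came from the mural cell-enriched libraries, where EpCAM-positive cells had been depleted.

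Cells with much *Scgb1a1* held part of the set. *Scgb1a1*-high cells had *Sftpa1* at 2462, 4324, 2368 and 2221 CPM, *Sftpb* at 834, 1814, 1152 and 989 CPM and *Sftpd* at 935, 878, 1277 and 437 CPM, while *Sftpc* was at 152, 281, 125 and 175 CPM. Against *Ager*-high cells, 5 of the 7 genes were higher (12.6% of all genes higher) and 1 was lower (11.8% of all genes lower). The 5 were *Sftpa1* (24.8-fold, log2 4.63, SE 0.86, edgeR adjusted p = 0.000223), *Sftpb* (log2 3.53, SE 0.83), *Sftpd* (1.96, SE 0.37), *Slc34a2* (1.92, SE 0.59) and *Abca3* (1.74, SE 0.26). *Napsa* was lower, at 27.3, 39.4, 36.7 and 3.97 CPM (log2 −1.80, SE 0.41, edgeR adjusted p = 0.00163). *Lamp3* did not pass (log2 −0.83, 95% interval −2.12 to 0.47). Club cell genes held 460218 to 625975 CPM in these cells, which lowers the CPM of all other genes there, whereas the fit scales for it by TMM. In *Foxj1*-positive cells 6 of the 8 genes had their lowest mean of the 6 states, while *Napsa* was lower in *Scgb1a1*-high and *Abca3* in *Cldn4*-positive *Sftpc*-low cells. These cells were mixed, with 3875 to 4807 CPM of ciliated, 3829 to 5949 CPM of AT2, 3213 to 3767 CPM of club cell and 994 to 1518 CPM of immune markers, and the part of other cells in the levels was not tested. *Lamp3* had 1.10, 3.16, 9.06 and 3.86 CPM and *Slc34a2* 5.48, 7.90, 23.1 and 3.86 CPM. Against *Ager*-high cells 4 of the 7 genes were lower (16.5% of all genes lower), namely *Lamp3* (log2 −3.32), *Slc34a2* (−2.71), *Sftpd* (−2.35) and *Napsa* (−1.88). *Foxj1*-positive cells drawn by marker presence were lower than *Ager* or *Rtkn2*-positive cells for 8 of the 8 genes, against 11.3% of all genes.

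Other genes of surfactant lipid, trafficking and control did not move as 1 group. In *Cldn4*-positive *Sftpc*-low against *Sftpc*-high *Cldn4*-negative cells, 12 of 12 genes of surfactant lipid synthesis were lower, against 12.1% of all genes lower, with a median log2 fold change of −2.24. *Lpcat1*, the acyltransferase that makes the main surfactant lipid, fell by 4.30 on the log2 scale (SE 0.34), the desaturase *Scd1* by 4.14, fatty acid synthase *Fasn* by 4.04 and the elongase *Elovl1* by 3.87. Of 11 tested genes of lamellar body and lysosome trafficking, 4 were lower against the same 12.1%, with a median of −0.27. These were *Vps33b* (log2 −1.75), the ubiquitin ligase *Nedd4l* (−1.32), *Ctsh* (−0.78), a protease that processes SP-B and SP-C, and *Ap3b1* (−0.51). Of the 6 AT2 transcription factors 3 were lower, against the same share of all genes. *Etv5* fell by 4.05 (SE 0.37) and *Cebpa* by 2.57 (SE 0.32), but *Nkx2-1*, the factor that switches on surfactant genes in the lung, only by 0.81 (SE 0.17, edgeR adjusted p = 0.00127). *Nkx2-1* had 223, 237, 261 and 311 CPM in *Sftpc*-high *Cldn4*-negative cells and 217, 211, 199 and 147.5 CPM in *Cldn4*-positive *Sftpc*-low cells. Other secreted or surface genes of AT2 cells fell as far as the members did, 8 of 8 with a median of −5.64, led by *Lyz1* (−8.44), complement C5 (*Hc*, −8.22), *Chil1* (−7.07) and *Cxcl15* (−5.85). Of 4 tested genes of surfactant clearance by macrophages, 2 were higher by edgeR, the cholesterol exporter *Abcg1* (1.68) and the receptor subunit *Csf2rb* (1.38), against 12.6% of all genes higher, and DESeq2 called 0. Immune markers were higher in these cells too, at 143 to 505 CPM against 36.8 to 152 CPM, and their part was not tested.

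*Ager*-high cells had 10 of 12 lipid genes lower, against 11.4% of all genes, among them *Scd1* (log2 −3.74), *Fabp5* (−3.69), *Fasn* (−3.58) and *Lpcat1* (−3.54), and 2 of 11 trafficking genes, *Ctsh* (−1.20) and *Cd63* (−1.12), a share near that of all genes. Their *Etv5* (−4.04) and *Cebpa* (−2.54) were lower, whereas *Nkx2-1* was at 309, 309, 293 and 399 CPM and did not pass (log2 −0.01, SE 0.17, edgeR adjusted p = 0.987). All 8 other AT2 genes were lower there, with a median of −5.00, and *Abcg1* was higher (2.18, against 11.7% of all genes higher). In the *Sftpc*-high *Cldn4*-positive cells 6 of 12 lipid genes were lower (median −1.42, against 5.01% of all genes), led by *Elovl1* (−2.25), *Acaca* (−1.65), *Acly* (−1.5) and *Fasn* (−1.49), with *Lpcat1* at −1.37. None of 11 trafficking genes passed there, with 3 at an unadjusted p under 0.05 and 0 called by DESeq2, and *Ctsh* had a log2 value of 0.43 (edgeR adjusted p = 0.174). *Etv5* (−1.44) and *Cebpa* (−1.04) were lower in these cells, and *Nkx2-1* did not pass (−0.16, edgeR adjusted p = 0.623). *Lyz1* was the other AT2 gene furthest down, at 15.9, 60.8, 8.45 and 5.61 CPM against 1542, 3107, 807 and 1892 CPM (log2 −6.92, SE 0.47), and 7 of these 8 genes were lower, while 0 (unadjusted 1, DESeq2 0) of 4 clearance genes passed. In *Scgb1a1*-high against *Ager*-high cells the lists moved both ways, as did all genes (12.6% higher and 11.8% lower), with *Cebpa* (1.47), *Foxa1* (1.31), *Acsl4* (1.37), *Rab38* (1.64), *Chil1* (4.69) and *Cxcl15* (3.61) higher and *Gata6* (−1.09), *Elovl1* (−1.10), *Nedd4l* (−1.01) and *Nkx2-1* (−0.93) lower. There *Lpcat1* (−0.15) and *Etv5* (−0.33) did not pass.

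Over 24 sums, 6 states in each of 4 mice, the genes outside the set whose level was most like the mean of the 8 were *Hc* (Pearson r 0.962), *Dram1* (0.962), *Lpcat1* (0.951), *Fasn* (0.939) and *Sfta2* (0.936). These are the highest of 8341 genes with at least 10 CPM in *Sftpc*-high sums, on the log2(CPM + 1) scale. Each member's own r with the mean of the other 7 ran from 0.783 for *Napsa* and 0.865 for *Sftpb* to 0.935 for *Lamp3* and 0.949 for *Slc34a2*. The sums of a mouse share its libraries, and the values are a description.

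The loss of *Tubb3* was compared in the same cells. In *Sftpc*-high *Cldn4*-negative cells, 0 of 7 genes were called different between *Tubb3*-/- and WT mice, against 0.0199% of all 10041 genes. At an unadjusted p under 0.05 there was 1, *Lamp3*, and DESeq2 called 0. *Lamp3* was lower in both *Tubb3*-/- mice (1224 and 1199 CPM in WT, 999 and 936 CPM in *Tubb3*-/-), with a log2 fold change of −0.38 (95% interval −0.69 to −0.08, edgeR adjusted p = 0.451). *Sftpa1* (−0.29, −0.58 to 0.01) and *Sftpb* (−0.19, −0.48 to 0.09) were also lower, with intervals that included 0, as was *Sftpc*, given without a test. *Sftpd* went the other way, with the *Tubb3*-/- mice higher (0.17, −0.11 to 0.45). The values of *Slc34a2* (−0.18, −0.51 to 0.16), *Napsa* (−0.06, −0.35 to 0.24) and *Abca3* (−0.05, −0.37 to 0.28) had intervals that included 0 as well. None of the lists held a called gene in this comparison, with 4, 1, 2 and 2 genes at an unadjusted p under 0.05 and 0 called by DESeq2, with medians of −0.33 for lipid synthesis, 0.05 for trafficking, −0.12 for transcription factors and −0.31 for other AT2 genes. *Lpcat1* was at 0.00, *Nkx2-1* at 0.25, *Etv5* at −0.37 and *Ctsh* at 0.45 on the log2 scale, with edgeR adjusted p from 0.411 to 0.999.

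In the other epithelial states the main test called none of the genes, and with 2 mice a genotype this does not show that they were alike. *Sftpc*-high *Cldn4*-positive cells had 0 of 7 genes called (0% of all genes, unadjusted 0, DESeq2 0), and 4 without WT replicate 1. *Cldn4*-positive *Sftpc*-low cells had 0 of 7 (0% of all genes, unadjusted 1, DESeq2 0), with fibroblast markers at 695 and 468 CPM in WT and 2526 and 2008 CPM in *Tubb3*-/- mice, whose part was not tested. *Ager*-high cells had 0 of 7 (0.205% of all genes, unadjusted 1, DESeq2 0), 1 without WT replicate 1 or WT replicate 2, and 2 with a replicate block, *Sftpb* (log2 −1.06) and *Sftpa1* (−0.98), both lower in *Tubb3*-/- mice. When cells with a *Ptprc*, *Cdh5* or *Pdgfra* UMI were left out, 4 were called in *Ager*-high cells, with *Sftpb* (2.79) and *Sftpa1* (3.0) of the opposite sign. Whether the genotype difference itself changed with the state was tested by an interaction. For *Cldn4*-positive *Sftpc*-low against *Sftpc*-high *Cldn4*-negative cells it passed for 0 of 7 genes (0% of all genes, unadjusted 1, DESeq2 0). For *Sftpc*-high *Cldn4*-positive cells it passed for 0 of 7 as well (0.0106% of all genes, unadjusted 0, DESeq2 0). In the cells drawn by marker presence, *Cldn4*-positive cells had 0 of 8 called (0.011% of all genes, unadjusted 1, DESeq2 0), and 1 with a replicate block. *Ager* or *Rtkn2*-positive cells had 0 of 8 called by edgeR (0.00844% of all genes), although all 8 genes were lower in *Tubb3*-/- mice by 0.74 to 1.44 on the log2 scale at an unadjusted p under 0.05. DESeq2 called 7 there, and edgeR called 6 without *Tubb3*-/- replicate 2 and 1 without WT replicate 1 or *Tubb3*-/- replicate 1. The shares of all genes at an unadjusted p under 0.05 or called by DESeq2 are not given, so these counts are not set against all genes. That state contains *Sftpc*-high cells, as stated above.

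Across all cells of the whole-cell libraries, all 8 genes were lower in *Tubb3*-/- mice. *Sftpc* had 4113 and 7017 CPM in WT against 1893 and 1571 CPM in *Tubb3*-/- mice (log2 −1.66, SE 0.29). *Slc34a2* had 104 and 131 CPM against 37.7 and 39.9 CPM (log2 −1.59, 95% interval −1.88 to −1.30), and *Lamp3* 34.7 and 51.9 CPM against 14.2 and 13.2 CPM (log2 −1.64, SE 0.20). *Sftpa1* had 600 and 1003 CPM against 276 and 248 CPM (log2 −1.59), *Sftpb* 202 and 302 CPM against 110 and 80.5 CPM (−1.38) and *Sftpd* 179.5 and 237 CPM against 102 and 76.6 CPM (−1.20). The 2 genes with much mRNA outside AT2 cells were lower by less, *Napsa* with 184 and 174 CPM against 114 and 105 CPM (−0.69) and *Abca3* with 42.0 and 46.7 CPM against 31.1 and 33.5 CPM (−0.44). By edgeR 0 of the 8 passed the adjustment (0% of 18404 genes called, adjusted p 0.134 to 0.154), all 8 had an unadjusted p under 0.05, and DESeq2 called 8. Without WT replicate 1 edgeR called 3. The median log2 fold change was −1.48 for the 8 genes and 0.00 for all genes. In all *Epcam*-positive cells edgeR likewise called 0 of 8 (0% of all genes, unadjusted 8, DESeq2 7), with log2 values of −0.48 to −1.35. Shares of all genes are not given for the unadjusted p or for DESeq2. Those counts can therefore not be set against all genes.

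A level over all cells joins the number of AT2 cells with the mRNA in each, and the cell counts bear on the first. *Sftpc*-high *Cldn4*-negative cells numbered 36, 60, 25 and 18 among 3375, 3079, 4140 and 3427 cells of the whole-cell libraries. Among cells of the 6 states, *Sftpc*-high cells with or without *Cldn4* were 40 of 132 (30.3%, exact 95% interval 22.6 to 38.9), 65 of 122 (53.3%, 44.0 to 62.4), 29 of 146 (19.9%, 13.7 to 27.3) and 20 of 79 (25.3%, 16.2 to 36.4). These intervals cover counting error only. The *Tubb3*-/- mice were lower without overlap, at 22.6% ± 3.86 (SD, n = 2) against 41.8% ± 16.2 (SD, n = 2), and the exact permutation test, two-sided, gave p = 0.33, the smallest 4 mice allow. *Cldn4*-positive *Sftpc*-low cells were 15.2%, 7.38%, 15.1% and 20.3% of the same cells (exact permutation p = 0.667). Among *Sftpc*-high cells, 10.0%, 7.69%, 13.8% and 10.0% held *Cldn4*. None of these shares can pass a threshold in this design, and how cells survived dissociation was not measured. The lists over all cells also held 0 called genes, though 5, 2, 5, 4 and 3 had an unadjusted p under 0.05 and DESeq2 called 5, 0, 2, 4 and 2, with medians of −0.21 for lipid synthesis, −0.08 for trafficking, −0.68 for transcription factors, −1.04 for other AT2 genes and −0.43 for clearance genes, and with *Nkx2-1* and *Etv5* at −0.70, *Lpcat1* at −0.55 and *Ctsh* at −0.16.

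*Sftpc* mRNA was found in nearly all cells. In *Ptprc* cells of the whole-cell libraries (no UMI of *Epcam*, *Cdh5* or *Pdgfra*), 90.2% to 91.6% held a *Sftpc* UMI, with a median of 2 to 3 UMIs. Their level, without cells of 50 or more *Sftpc* UMIs, was 250 to 279 CPM, and it was 245 to 379 CPM in *Cdh5* cells. In *Pdgfra* cells of the mural cell-enriched libraries, which are fibroblasts, it was 147 to 179 CPM. The 182 to 229 CPM of *Cldn4*-positive *Sftpc*-low cells lay below these levels in *Ptprc* and *Cdh5* cells. They lay above those in *Pdgfra* cells of the mural cell-enriched libraries. Median depth was 15844 to 22513 UMIs in *Cldn4*-positive *Sftpc*-low cells against 6796 to 7406 in *Ptprc* cells. The order in CPM is therefore not an order per cell, and the part of depth was not tested. *Ager*-high cells had 257, 305, 403 and 365 CPM, and in both *Tubb3*-/- mice this was above the levels in *Ptprc* and *Cdh5* cells of the same mouse. The *Sftpc* floor caps the level in these states. With each cell thinned to 2000 UMIs, *Sftpc* was found in 47.8% to 50.4% of *Ptprc* cells and 23.8% to 53.5% of *Cldn4*-positive *Sftpc*-low cells, and 24 to 44 *Ptprc* cells a mouse and at most 1 cell of the other state were too shallow and left out. *Sftpd* was different. It was found in 32.6% to 44.4% of the thinned *Cldn4*-positive *Sftpc*-low cells (52.4% to 79.4% unthinned) against 2.11% to 2.81% of the thinned *Ptprc* cells (6.58% to 9.39% unthinned). *Sftpa1* was found in 10.9% to 23.8% of thinned *Cldn4*-positive *Sftpc*-low cells against 7.91% to 9.79% of thinned *Ptprc* cells, and *Slc34a2* in 1.59% to 14.3% against 1.75% to 2.20%, which overlap. Thinned *Scgb1a1*-high cells held *Sftpa1* in 54.2% to 88.9%, *Sftpb* in 60.0% to 88.9% and *Sftpd* in 44.4% to 58.3%.

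The ratios of the genes to each other were also compared, and the source of the RNA in each group was not tested. Per 1000 *Sftpc* UMIs, *Sftpc*-high *Cldn4*-negative cells (both libraries) held 126 to 134 UMIs of *Sftpa1*, 40.6 to 51.4 of *Sftpb* and 29.0 to 44.1 of *Sftpd*. *Ptprc* cells of the whole-cell libraries with under 50 *Sftpc* UMIs gave like ratios, at 128 to 191, 45.0 to 51.9 and 23.7 to 37.8. *Lamp3* (10.4 to 12.9 against 6.86 to 8.22) and *Slc34a2* (24.5 to 31.8 against 20.7 to 24.3) were somewhat above. *Abca3* and *Napsa* were far from it. *Ptprc* cells held 101 to 121 *Abca3* UMIs per 1000 of *Sftpc* against 3.0 to 3.85 in *Sftpc*-high *Cldn4*-negative cells, and 549 to 715 *Napsa* UMIs against 13.7 to 19.6. In *Pdgfra* cells of the mural cell-enriched libraries, also with under 50 *Sftpc* UMIs, *Abca3* was again high, at 63.6 to 75.3, but *Napsa* was at 14.3 to 20.0. *Cldn4*-positive *Sftpc*-low cells held 2655 to 4579 *Sftpd* UMIs per 1000 of *Sftpc*, and *Scgb1a1*-high cells 12705 to 18905 of *Sftpa1*. Both states were drawn with under 50 *Sftpc* UMIs a cell, so higher ratios there were fixed in part by the choice of cells.

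Single cells with much *Sftpc* decided some of the levels outside the epithelium. In WT replicate 2, 1 of the *Ptprc* cells held 6881 of 10144 *Sftpc* UMIs (67.8%), and in *Tubb3*-/- replicate 1, 1 *Ptprc* cell of the mural cell-enriched library held 5062 of 5295 (95.6%). The genotypes were compared in these cells too. *Ptprc* cells had 0 of 8 genes called (0% of all genes, unadjusted 1) and 3 without WT replicate 1. *Cdh5* cells had 0 of 8 (0.0152% of all genes, unadjusted 4) and 2 without WT replicate 2, and *Pdgfra* cells had 0 of 8 (0.0151% of all genes, unadjusted 8) and 6 without WT replicate 1. DESeq2 was not run for these 3 groups. Between the kinds of library, *Pdgfra* cells had 1 of 8 genes higher in the whole-cell libraries, *Napsa* (log2 1.22, SE 0.23, edgeR adjusted p = 0.00808, 7.82% of all genes called), and *Sftpc* did not pass (0.59, 95% interval −0.03 to 1.21). *Cdh5* cells had 2, *Napsa* (1.12) and *Sftpd* (0.68), against 23.5% of all genes, with 0 without WT replicate 1 or *Tubb3*-/- replicate 2. *Ptprc* cells had 3, against 23.3% of all genes, with 1 without WT replicate 2 or *Tubb3*-/- replicate 1. The 3 were *Napsa* (1.06), *Slc34a2* (−2.26) and *Sftpd* (−2.76), and the last 2 turned to 0.10 and 0.34 once cells with 50 or more *Sftpc* UMIs were left out.

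Among leukocytes *Napsa* was high in dendritic and B cell-like cells. *Ptprc* cells were sorted into kinds by at least 2 markers of a list (3 for neutrophils). *Napsa* had 430, 406, 478 and 438 CPM in 326 conventional dendritic cell-like cells, 379, 273, 577 and 431 CPM in 251 mature dendritic cell-like cells, and 410, 410, 387 and 478 CPM in 502 B cell-like cells. It had 42.6, 34.2, 44.1 and 28.2 CPM in 704 alveolar macrophage-like cells. In 1440 T and NK cell-like cells it had 21.7, 72.8, 16.4 and 22.5 CPM, so that the 3 high kinds and these 2 low kinds do not overlap in any mouse. Between them lay 1342 *Ptprc* cells of no named kind, with 203, 327, 134 and 249.7 CPM, of which WT replicate 2 was above its mature dendritic cell-like cells, and neutrophil-like cells, with 99.1, 136, 127 and 115 CPM. Each kind was tested against the mean of the other kinds of *Ptprc* cells, with every kind weighted alike whatever its number of cells. *Napsa* was higher in conventional dendritic cell-like (log2 1.88, SE 0.20, edgeR adjusted p = 2.94e-08), mature dendritic cell-like (1.78, SE 0.20, edgeR adjusted p = 1.52e-07) and B cell-like cells (1.43, SE 0.21, edgeR adjusted p = 3.55e-06). It was lower in alveolar macrophage-like cells (−2.44, SE 0.28, edgeR adjusted p = 4.07e-08). With cells thinned to 2000 UMIs, *Napsa* was found in 45.1% to 52.9%, 34.4% to 52.6% and 51.0% to 62.1% of the 3 kinds, in 5.06% to 9.27% of alveolar macrophage-like cells and in 1.68% to 2.74% of *Cdh5* cells. The antisense gene that overlaps *Napsa* cannot be told apart from it here.

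In each kind of leukocyte tested the other genes differed less than *Napsa*. More of the genes were called in conventional dendritic cell-like and B cell-like cells without cells of 50 or more *Sftpc* UMIs, as given below. Of the 7 genes that could be tested, 1 was higher in B cell-like cells (*Napsa*, against 23.9% of all genes higher), 2 were higher in conventional dendritic cell-like cells (24.3% of all genes higher), and 1 was higher and 1 lower in mature dendritic cell-like cells (20.6% of all genes higher and 10.1% lower). In alveolar macrophage-like cells 1 was higher (31.9% of all genes higher) and 3 were lower (28.9% of all genes lower). *Abca3* was higher in alveolar macrophage-like (log2 0.51, SE 0.14, edgeR adjusted p = 0.00318) and conventional dendritic cell-like cells (0.52, edgeR adjusted p = 0.012) and lower in mature dendritic cell-like cells (−0.53, edgeR adjusted p = 0.0411). The first 2 calls were lost without WT replicate 1, and the last without WT replicate 1 or either *Tubb3*-/- replicate. *Lamp3*, whose product is also called DC-LAMP after mature dendritic cells, had 2.57 to 5.15 CPM in the mature dendritic cell-like cells and was too low to be tested. In T and NK cell-like cells *Sftpc* had 328, 3699, 342 and 346 CPM, and in WT replicate 2, 1 cell held 6881 of the 7620 UMIs. Alveolar macrophages take up and break down surfactant. Per total UMIs, *Sftpc* was lower in the alveolar macrophage-like cells than in the mean of the other kinds of *Ptprc* cells (log2 −0.86, edgeR adjusted p = 0.0374), as was *Slc34a2* (−0.76, edgeR adjusted p = 0.0448). These cells held a median of 21027 to 26214 UMIs each, against 6144 to 6324 in T and NK cell-like and 4759 to 5476 in B cell-like cells, so the differences are not differences per cell, and the part of depth was not tested. Without the cells of 50 or more *Sftpc* UMIs the values were −0.64 (edgeR adjusted p = 2.12e-07) and −0.63 (edgeR adjusted p = 0.0178). With those cells in, the *Sftpc* call was lost without WT replicate 1 or either *Tubb3*-/- replicate, and the *Slc34a2* call without any 1 of the 4 mice.

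**Figure D4:**
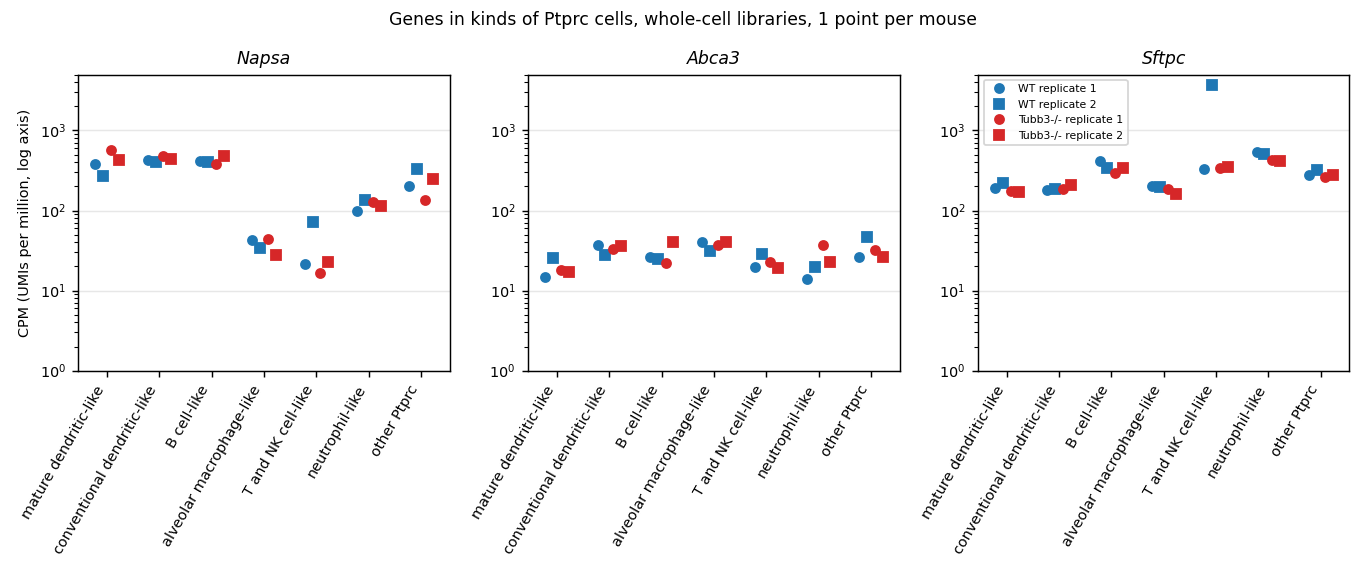
Level of *Napsa*, *Abca3* and *Sftpc* in CPM on a log axis in 7 kinds of *Ptprc* cells of the whole-cell libraries, with 1 point per mouse. *Napsa* lies at 273 to 577 CPM in the dendritic and B cell-like kinds and at 28.2 to 44.1 CPM in alveolar macrophage-like cells, and the *Sftpc* value of 3699 CPM in T and NK cell-like cells is WT replicate 2.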

How the data were processed

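Single-cell RNA-seq (10x 3′) covered 8 libraries, a whole-cell and a mural cell-enriched one from each of 4 mice, with the 4 tagged samples of a kind in 1 pool. The counts deposited by the authors are UMIs per gene and cell, made with Cell Ranger 7.1.0 on mm10 with an added *Cre* gene, with no normalization. Strand use is not given in the sources used here. Tag counts (26.18% to 36.45% of a library's UMIs) were set aside. Libraries held 41462258 to 95036340 gene UMIs, and the number of cells in a state, not sequencing depth, limits most values.

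Of 32121 barcodes, 1261 failed the limits (200 to 7500 genes, at most 15% mitochondrial UMIs), and 777 were removed as doublets by Scrublet in scanpy 1.11.5 (0.98% of the whole-cell and 3.82% of the mural cell-enriched pool), which left 30083. UMIs were summed per mouse and cell group and given as CPM. The mouse was the replicate. Groups were taken from the sample titles, and whether mice came from separate litters is not stated. Sums were fitted by the quasi-likelihood F test of edgeR 4.0.16 (R 4.3.3, limma 3.58.1) after TMM scaling and the filterByExpr filter, with the mouse as a block between states, and adjusted over all genes tested by Benjamini-Hochberg at 0.05. Scripts were tested on simulated counts. DESeq2 1.42.0, RLE scaling, no filter, other floors, a replicate block and each mouse left out were alternatives. Shares were compared by exact permutation over 4 mice (scipy 1.17.1, Python 3.11.15), and standard errors of fold changes were derived from the F statistic.

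The 8 genes and the gene lists were chosen with earlier results of these data known. All 8 genes are named. From the lists the called genes with the largest log2 fold change are named, at most 4 a list, plus *Nkx2-1*, *Etv5*, *Lpcat1* and *Ctsh*, and the 5 genes most like the set. Names of leukocyte kinds rest on the marker lists. The states were redrawn after the data had been seen, as the state of *Sftpc*-high cells without any *Ager*, *Rtkn2*, *Cldn4* or *Foxj1* UMI held too few cells for a fit. Gene positions are from GENCODE vM21 on GRCm38. Cells with 50 or more *Sftpc* UMIs were left out of *Ptprc*, *Cdh5* and *Pdgfra* levels where stated.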

Additional observations from a re-analysis of the deposited data

How the results depend on the processing

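The 7 genes stayed lower in *Cldn4*-positive *Sftpc*-low and in *Ager*-high than in *Sftpc*-high *Cldn4*-negative cells (7 of 7 called) under every alternative that gave a fit, and 0 of 7 were called between genotypes in *Sftpc*-high *Cldn4*-negative cells throughout. Every alternative kept an *Sftpc* floor, so the direction of these state differences was fixed in part by the choice of cells. The tests planned on the nearly empty state could not be run. Cells are few (57 *Sftpc*-high *Cldn4*-positive, 64 *Scgb1a1*-high), and 2 mice a genotype limit every genotype result. Over all counts and shares, 308 alternative values stayed close to the reported one, 65 moved and 1 count of genes turned. Shares whose difference changed sign are among the 65.

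Values below are counts of the 8 (or 7) genes called, and the share of all genes called under an alternative is not given. Without the filter on low counts the genotype counts were 1 in *Cldn4*-positive, 8 in *Ager* or *Rtkn2*-positive, 7 in all *Epcam*-positive, 2 in *Cdh5*, 6 in *Pdgfra* and 1 in *Ager*-high cells, whole-cell against mural cell-enriched libraries gave 5 in *Ptprc*, 4 in *Cdh5* and 4 in *Pdgfra* cells, conventional dendritic cell-like cells gave 4, *Sftpc*-high *Cldn4*-positive against negative cells 7, *Cldn4*-positive *Sftpc*-low against *Ager*-high cells 4, and the interaction for *Cldn4*-positive *Sftpc*-low cells 2. DESeq2 gave 7 in *Ager* or *Rtkn2*-positive, 7 in all *Epcam*-positive and 8 in all lung cells. With cells of 50 or more *Sftpc* UMIs left out, an alternative chosen after seeing the data like those that follow, the library comparison gave 1 in *Ptprc* and 1 in *Cdh5* cells, conventional dendritic cell-like cells 5 and B cell-like cells 2, and *Slc34a2* (0.10) and *Sftpd* (0.34) in the library comparison of *Ptprc* cells and *Sftpc* (0.19) in B cell-like cells changed sign. *Cldn4* at 3 or more UMIs gave 7 for *Sftpc*-high *Cldn4*-positive against negative cells. Without cells holding a *Ptprc*, *Cdh5* or *Pdgfra* UMI that count was 1, *Cldn4*-positive *Sftpc*-low against *Ager*-high cells gave 1 in the other direction, and the *Ager*-high genotype count was 4, with *Sftpb* (2.79) and *Sftpa1* (3.0) of opposite sign. Whole-cell libraries alone gave 0 for *Cldn4*-positive *Sftpc*-low against *Ager*-high cells. Mural cell-enriched libraries alone, with 4 *Scgb1a1*-high cells, gave 2 for *Scgb1a1*-high against *Ager*-high cells, with *Slc34a2* (−0.65), *Sftpb* (−0.18), *Napsa* (0.12) and *Abca3* (−1.57) of opposite sign. A *Sftpc* floor of 20 gave 0 and of 200 gave 2 for *Cldn4*-positive *Sftpc*-low against *Ager*-high cells. With cells thinned to 2000 UMIs the share of *Sftpc*-high cells as first drawn differed by −1.98 points, against 0.28 points unthinned. That of *Cldn4* among *Sftpc*-high cells differed by −1.70 points, against 3.05 points unthinned, so both changed sign. Apart from those built with fewer genes or cells, the cause was not tested.

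With a replicate block the genotype counts were 1 in *Cldn4*-positive, 2 in *Pdgfra* and 2 in *Ager*-high cells, and 0 in the others. Replicate numbers pair no animals, although the differences between replicates 1 and 2 of the 2 genotypes correlated across 9579 genes (r 0.492 in all cells, 0.228 over 9284 genes in *Epcam*-positive cells).

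Leaving out 1 mouse at a time gave genotype counts of 0 to 0 in *Cldn4*-positive, all *Epcam*-positive, *Sftpc*-high *Cldn4*-negative and *Cldn4*-positive *Sftpc*-low cells and both interactions, 0 to 6 in *Ager* or *Rtkn2*-positive, 0 to 3 in all lung, 0 to 3 in *Ptprc*, 0 to 2 in *Cdh5*, 0 to 6 in *Pdgfra*, 0 to 4 in *Sftpc*-high *Cldn4*-positive and 0 to 1 in *Ager*-high cells (1 without WT replicate 1 or WT replicate 2). Library comparisons gave 1 to 4 (*Ptprc*), 0 to 1 (*Cdh5*) and 1 to 1 (*Pdgfra*). State contrasts gave 7 to 7 for both *Sftpc*-low alveolar states, 1 to 4 for *Sftpc*-high *Cldn4*-positive cells, 0 to 2 for *Cldn4*-positive *Sftpc*-low against *Ager*-high, 5 to 7 for *Scgb1a1*-high and 3 to 5 for *Foxj1*-positive against *Ager*-high cells, and 5 to 6 and 8 to 8 for *Cldn4*-positive and *Foxj1*-positive cells drawn by presence. Leukocyte kinds gave 1 to 4 for mature dendritic cell-like (4 without WT replicate 2), conventional dendritic cell-like (1 without WT replicate 1, 4 without WT replicate 2) and alveolar macrophage-like cells (1 without WT replicate 1, 2 without *Tubb3*-/- replicate 1), and 1 to 1 for B cell-like cells. Differences of shares ran from −30.7 to −7.71 points for *Sftpc*-high cells among the 6 states, 2.51 to 10.3 for *Cldn4*-positive *Sftpc*-low cells, 1.15 to 4.95 for *Cldn4* among *Sftpc*-high cells, 0 to 0.563 for *Sftpc*-high cells and −0.493 to 2.68 for *Cldn4*-positive cells as first drawn.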

Other observations

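Surfactant is cleared by alveolar macrophages, and a list of 5 genes of that task was higher in the 704 alveolar macrophage-like cells than in the mean of the other kinds of *Ptprc* cells, 5 of 5, against 31.9% of all genes called higher. *Marco*, one of the 5, is also a marker that chose these cells, so it is no independent part of the count. *Abcg1*, which exports cholesterol, had 690 to 1180 CPM in the 4 mice (log2 fold change 3.29, SE 0.20), and the nuclear receptor gene *Pparg* 217 to 274 CPM (2.48, SE 0.22). The subunits of the GM-CSF receptor had 355 to 430 CPM (*Csf2rb*, 1.65, SE 0.14) and 189 to 250 CPM (*Csf2ra*). The same cells had 7 of 12 lipid synthesis genes higher, against the same 31.9%, among them *Fabp5* (2.50), *Srebf1* (1.45) and *Chka* (1.06). In the other direction 3 of the 12 were lower, near the share of all genes (28.9% lower), with *Lpcat1* at −0.90. Of 11 trafficking genes 6 were higher, led by *Cd63* (2.03) and *Lamp1* (1.91), and *Ctsh* was at 0.89. Only 1 of them, *Nedd4l*, was lower (−2.05), against 28.9% of all genes lower. These genes belong to lysosomes in general, and macrophages are rich in lysosomes.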
